A study of Mus musculus with 10 samples.

Results

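Synaptic vesicle release machinery was taken as 44 named genes of the 32531 gene rows counted in each library: the SNARE proteins and their regulators, synaptotagmins, vesicle proteins, active zone scaffolds and priming factors. All 44 have a row in every library. They were read in RNA bound to EGFP-tagged ribosomes from the medial habenula, a paired nucleus of the epithalamus whose neurons project to the interpeduncular nucleus. There were 10 pull-downs, 5 from the left side and 5 from the right side of adult mice of the BAC transgenic line Chat-TRAP DW167, in which EGFP is fused to the ribosomal protein Rpl10a in cells that express choline acetyltransferase. Left and right libraries share the transgene and the pull-down (translating ribosome affinity purification, TRAP), and differ in the side dissected. The labels give neither the number of animals nor any pooling, so p-values measure the spread between these libraries, which may be partly technical. No unpurified tissue and no untagged pull-down was used here, so the share of background RNA was not measured.

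Release of transmitter depends on a bundle of SNARE proteins that pulls the vesicle membrane onto the plasma membrane. Syntaxin-1 and SNAP-25 sit on the plasma membrane and synaptobrevin (VAMP) on the vesicle. Complexins hold the bundle ready, synaptotagmins bind calcium and trigger fusion, Munc13 and CAPS proteins prime vesicles, RIM, Bassoon and Piccolo build the active zone, and NSF with its SNAP adaptors takes the spent bundle apart. Medial habenular terminals release glutamate and acetylcholine and are known for strong presynaptic modulation.

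Libraries held 42488448 to 67942836 gene reads, so counting noise is small for all but the rarest of the 44 genes, which together took 2.53% to 3.16% of them. Levels are CPM, reads per 1000000 gene reads of a library, and levels of different genes are compared as CPM per kb of annotated exon. The libraries fell apart by replicate number rather than by side. In replicates 1 and 5 of both sides the summed level of 15 astrocyte markers was 125 to 137 CPM, against 507 to 2160 CPM in the other 6 libraries, and 12 oligodendrocyte markers summed to 106 to 119.6 CPM against 428 to 1761 CPM. The 10 markers of thalamic neurons summed to 1268 to 1333 CPM against 1948 to 3834 CPM, and 9 medial habenular genes ran the other way, at 10047 to 10502 CPM against 4917 to 8565 CPM. The defining cholinergic genes were present in every library: Chat levels were 162 to 196 CPM in replicates 1 and 5, against 84.5 to 123 CPM elsewhere. Slc5a7 stood at 262 to 291 CPM against 131 to 229 CPM. Slc18a3 overlapped, at 476 to 575 CPM against 200 to 483 CPM. Replicates 1 and 5 of a side were also much alike. A chi-square comparison, over genes with 20 to 100 reads per pair, gave 1.45 per degree of freedom for left replicates 1 and 5 and 1.14 for right replicates 1 and 5, where 1 is sampling noise, and at least 3.74 for every other pair. The labels do not say whether replicates 1 and 5 of a side share animals or RNA. These 2 libraries of a side differed by more than sampling noise, which does not show that they come from different animals. They were kept as separate libraries, with the summed libraries as an alternative.

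Some of the genes whose levels differ between libraries are shown by their promoters. These are not the genes that differ most: Syn2, Rab3c and Bsn differed more than Syn1 and are not printed. Each stretch runs from 250 bases before to 50 bases after the start, from RefSeq on GRCm38.p6 in the direction of transcription. Cadps2 and Syt9 were highest in replicates 1 and 5, whereas Cadps, Pclo and Syn1 were lowest there. Capitals mark 4 motifs searched on both strands: the GC box GGGCGG, the CCAAT box CCAAT, the cyclic AMP response element TGACGTCA and TTCAGCACC, the left end of the RE1 site that the neuronal repressor REST binds.
Cadps2, chr6:23839372-23839671, minus strand: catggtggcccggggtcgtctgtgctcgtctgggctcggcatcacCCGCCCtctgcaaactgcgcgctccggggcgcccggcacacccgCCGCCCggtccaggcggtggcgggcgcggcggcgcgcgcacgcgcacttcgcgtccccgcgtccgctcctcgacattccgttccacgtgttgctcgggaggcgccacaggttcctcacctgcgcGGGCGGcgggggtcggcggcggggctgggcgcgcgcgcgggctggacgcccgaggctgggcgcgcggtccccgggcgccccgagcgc
Syt9, chr7:107370540-107370839, plus strand: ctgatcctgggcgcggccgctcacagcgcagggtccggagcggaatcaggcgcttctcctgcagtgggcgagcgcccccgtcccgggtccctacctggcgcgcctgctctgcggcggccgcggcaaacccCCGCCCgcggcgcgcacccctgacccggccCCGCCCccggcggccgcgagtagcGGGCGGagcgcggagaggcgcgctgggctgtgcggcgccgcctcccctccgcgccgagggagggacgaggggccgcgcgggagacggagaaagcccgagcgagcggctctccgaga
Cadps, chr14:12823030-12823329, minus strand: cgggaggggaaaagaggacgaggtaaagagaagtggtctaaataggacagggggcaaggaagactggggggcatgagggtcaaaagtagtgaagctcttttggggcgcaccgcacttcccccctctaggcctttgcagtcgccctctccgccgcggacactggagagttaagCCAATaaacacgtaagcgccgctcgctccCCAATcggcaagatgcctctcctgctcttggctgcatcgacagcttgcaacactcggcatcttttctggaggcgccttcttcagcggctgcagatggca
Pclo, chr5:14514668-14514967, plus strand: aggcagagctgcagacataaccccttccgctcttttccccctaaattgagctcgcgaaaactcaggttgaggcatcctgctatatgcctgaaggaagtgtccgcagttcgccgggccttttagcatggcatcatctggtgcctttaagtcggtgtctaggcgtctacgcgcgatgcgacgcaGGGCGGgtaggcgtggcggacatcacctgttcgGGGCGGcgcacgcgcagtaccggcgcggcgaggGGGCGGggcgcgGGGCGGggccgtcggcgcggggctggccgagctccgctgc
Syn1, chrX:20920869-20921168, minus strand: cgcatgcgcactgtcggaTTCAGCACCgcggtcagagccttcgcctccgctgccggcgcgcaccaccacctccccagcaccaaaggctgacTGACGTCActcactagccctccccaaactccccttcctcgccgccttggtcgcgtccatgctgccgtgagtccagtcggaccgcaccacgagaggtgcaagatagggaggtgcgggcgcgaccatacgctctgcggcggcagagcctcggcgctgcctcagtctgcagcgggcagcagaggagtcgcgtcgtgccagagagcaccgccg

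Cadps2 and Syt9 have 79.7% and 79.3% G and C in this window and 3 GC boxes each. Cadps has 58.0% G and C, no GC box and 2 CCAAT boxes, and Pclo has 66.0% and 4 GC boxes. The Syn1 window holds the end of the RE1 site and the cyclic AMP response element, each in 1 copy. Over all 32851 promoters of the table the median was 52.7% G and C, 35.7% held a GC box, 37.4% a CCAAT box, 1.79% the cyclic AMP response element and 0.371% the RE1 end. Promoters were found for 35 of the 44 genes, 45 promoters in all. Of these 45 promoters 31 held a GC box and 12 a CCAAT box. The cyclic AMP response element was in 2 (Syn1 and Napa) and the RE1 end in 2 (Syn1 and Unc13a). Counted by gene, with a match in any of its promoters, 27 of the 35 held a GC box and 12 a CCAAT box. The shares over the whole table are per promoter and are not comparable with the counts by gene. A match describes the letters and is no evidence that a factor binds.

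Of the SNARE genes, Snap25 and Vamp2 were abundant and Vamp1 and Stx1a were scarce. Snap25, the plasma membrane SNARE SNAP-25, was the highest of the 44 genes per length, with a median of 1154 CPM per kb over the 10 libraries and a range of 1064 to 1466. It had 7394, 8212, 8716, 9959 and 7789 CPM in left replicates 1 to 5, against 7223, 9459, 7881, 7429.7 and 7789 CPM in right replicates 1 to 5. The sides overlapped, and the highest library was 1.38 times the lowest. Vamp2, the synaptobrevin of most central synapses, had a median of 571 CPM per kb, and Vamp1, its paralogue, 7.69 CPM per kb. In every library Vamp2 was by far the larger of the pair, at 96.6% to 99.2% of their summed level per kb. It stood at 2158, 2309.7, 1818, 1615 and 2306 CPM on the left, against 2194, 2305, 1492, 1593 and 2283 CPM on the right. Vamp1 stood at 52.6, 95.1, 112, 146 and 50.9 CPM on the left, against 54.7, 83.4, 141, 72.9 and 53.0 CPM on the right. Replicates 1 and 5 held the 4 lowest Vamp1 values, and for both genes the sides overlapped. Stx1a, a syntaxin-1, was scarce, with a median of 4.84 CPM per kb and between 10.3 and 16.8 CPM in all libraries.

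Among regulators of the bundle, Cplx1 dominated the complexins. Its median was 865 CPM per kb, against 75.3 CPM per kb for Cplx2, and it made up 89.9% to 92.6% of the sum of the 2 genes in every library. Cplx1 stood at 1958, 1829, 1672, 1680.1 and 1975 CPM on the left, against 2100.1, 2108, 1272, 1222 and 2059 CPM on the right, where replicates 3 and 4 were the lowest of all. Cplx2 ranged from 273 to 460.1 CPM. Cplx3, a complexin of retinal ribbon synapses, had 2 to 13 reads per library and 62 reads over the 10 libraries, and was the only one of the 44 genes with too few reads for the test between sides. Stxbp5, the SNARE-binding inhibitor tomosyn, was among the steadiest genes, at 318, 292, 342, 347 and 287 CPM on the left, against 316, 318, 322, 304 and 298 CPM on the right.

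**Figure D1:**
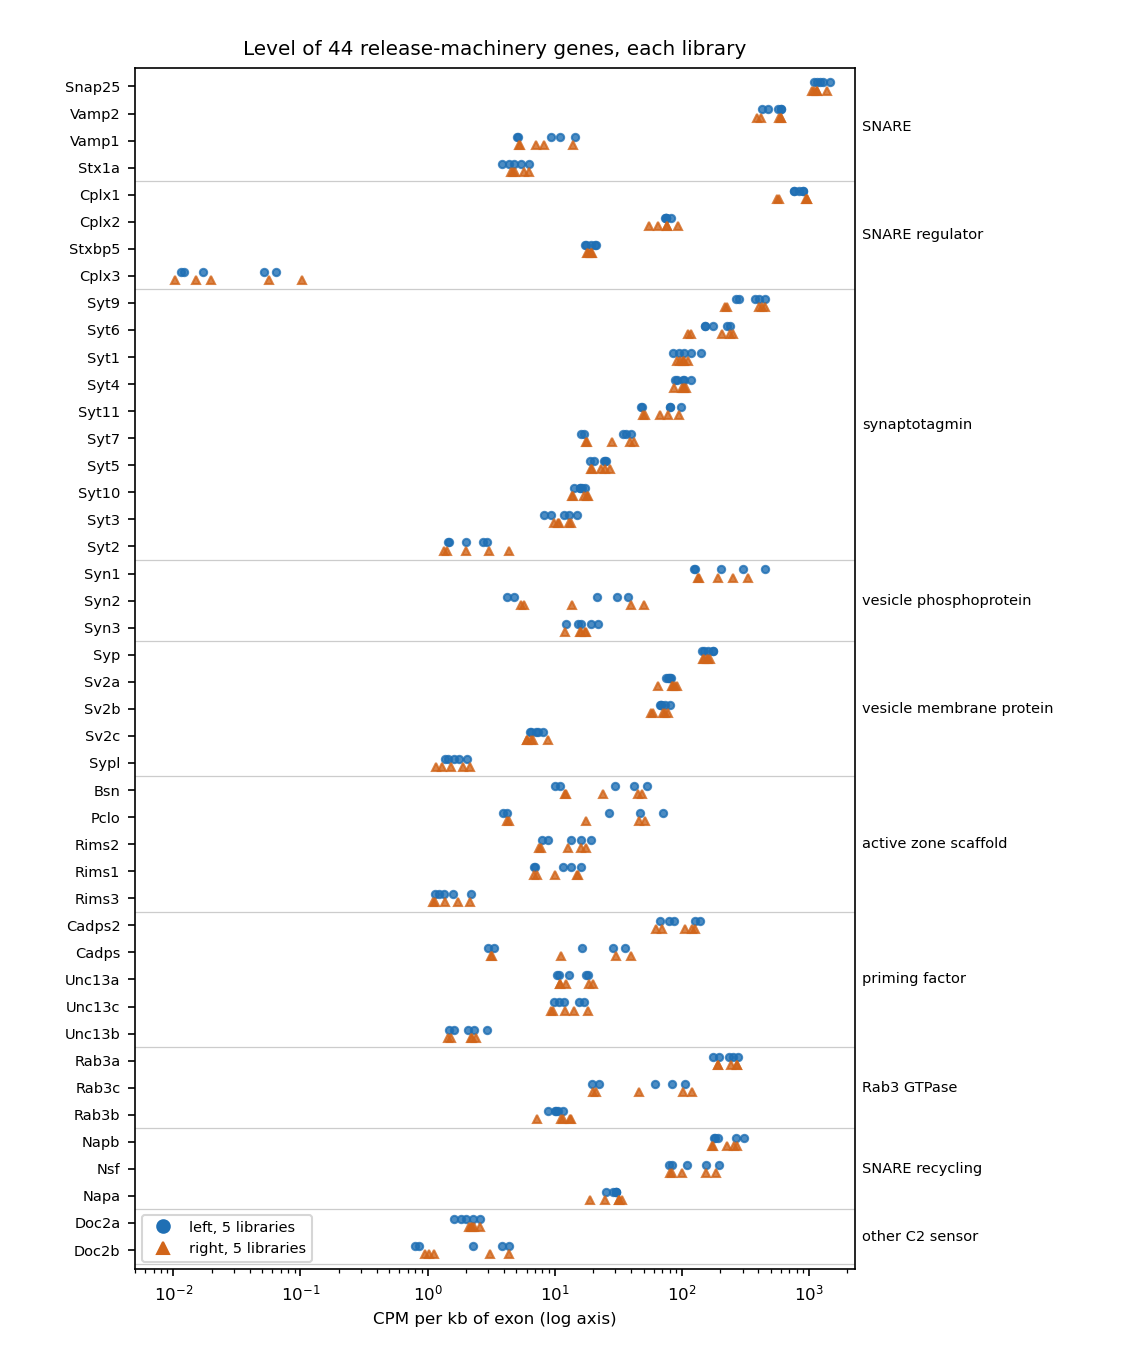
Levels of the 44 release genes by role, in CPM per kb of exon on a log axis, with 1 point per library (left, blue circles; right, orange triangles). Snap25, Cplx1, Vamp2 and Syt9 head the plot, at medians of 1154, 865, 571 and 391 CPM per kb, and Cplx3 lies at the bottom, at 0.0186.

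Of the 10 synaptotagmins on the list, a family of mostly calcium-binding vesicle proteins, Syt9 and Syt6 had the highest medians per length. Syt9, one of the fast sensors of synaptic release along with Syt1 and Syt2, had a median of 391 CPM per kb. Syt6, known from the acrosome reaction of sperm, followed with 192, Syt1 with 103, Syt4 with 102.7 and Syt11 with 72.2 CPM per kb. Syt13, a form of the wider list named after its value was seen, had a median of 128 CPM per kb, between Syt6 and Syt1. With the longest transcript as the length the median was 253 CPM per kb for Syt6 and 178 for Syt1, and Syt1 was the higher in left replicate 4 and right replicates 3 and 4. Of the 3 fast sensors, Syt9 made up 65.0% to 82.4% of the summed level per kb, and Syt1 17.3% to 34.3%. With the longest transcript as the length in place of all annotated exons, the share of Syt9 was 53.0% to 73.9%, so it stayed the largest of the 3 in every library. Syt2, the sensor of fast hindbrain synapses, was scarce, at 10.3 to 11.2 CPM in replicates 1 and 5, against 15.3 to 33.5 CPM in the other 6 libraries.

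Syt9 and Syt1 ran in opposite directions across the libraries. Syt9 stood at 1783, 1507, 1117, 1056 and 1613 CPM on the left, against 1782, 1602, 875, 909 and 1683 CPM on the right. Syt1 stood at 786, 975, 863, 1169 and 716 CPM on the left, against 805, 856, 931, 873 and 764 CPM on the right. Replicates 1 and 5 of both sides held the 4 highest Syt9 values and the 4 lowest Syt1 values. Syt6 followed Syt9, with 1404, 1023, 889.9, 893 and 1309.8 CPM on the left, against 1458, 1214, 686, 652 and 1405 CPM on the right. Other sensors were lower in replicates 1 and 5, as Syt1 was. Syt7, a slow, high-affinity sensor known for asynchronous release and facilitation, had 120.3 to 134 CPM in replicates 1 and 5, against 209.9 to 314 CPM in the other 6 libraries. Syt11, a form that binds no calcium, had 249 to 266 CPM against 348 to 517 CPM, and Syt5 had 45.0 to 48.7 CPM against 54.9 to 64.5 CPM. Of the last 3 genes, Syt4 was slightly higher there and 2 overlapped. Syt4, which lacks a working calcium site in its first C2 domain, stood at 401 to 456 CPM against 339.9 to 401 CPM. Syt3 and Syt10 overlapped between these libraries, at 25.8 to 47.0 CPM and 25.3 to 33.5 CPM over all 10. The Doc2 proteins, soluble C2 sensors linked to spontaneous release, were both scarce, with medians of 2.21 CPM per kb for Doc2a and 1.69 CPM per kb for Doc2b. Doc2a shares 39.4% of its exonic bases with Ino80e on the other strand, so reads there may have been dropped as ambiguous and its level may be too low.

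Priming factors gave the widest contrast between paralogues. Cadps2 and Cadps encode the CAPS proteins that prime dense-core and synaptic vesicles. Cadps2 stood at 1339.8, 823, 763, 649 and 1209.5 CPM on the left, against 1211, 1014, 603, 670.3 and 1155 CPM on the right. Cadps stood at 49.8, 246, 434, 534 and 44.9 CPM on the left, against 48.6, 169, 595, 455 and 47.3 CPM on the right. In replicates 1 and 5 Cadps was at its lowest and Cadps2 at its highest on both sides. Cadps2 therefore made up 97.5% to 97.7% of the pair's summed level per kb in replicates 1 and 5, and 61.5% to 90.4% in the other 6 libraries. It was the larger of the pair in all 10. The Munc13 genes Unc13a, Unc13b and Unc13c were also lower in replicates 1 and 5, by less than Cadps. Unc13a, the main Munc13 of glutamatergic synapses, had 131 to 139.8 CPM in replicates 1 and 5, against 155 to 252 CPM in the other 6 libraries. Unc13c, a cerebellar form, had 83.0 to 94.5 CPM against 103 to 162 CPM, and Unc13b had 33.1 to 36.4 CPM against 47.3 to 66.2 CPM. Unc13a and Unc13c had near-equal medians of 12.6 and 11.9 CPM per kb, and the share of Unc13a in the 3 genes was 45.6% to 53.3%.

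**Figure D2:**
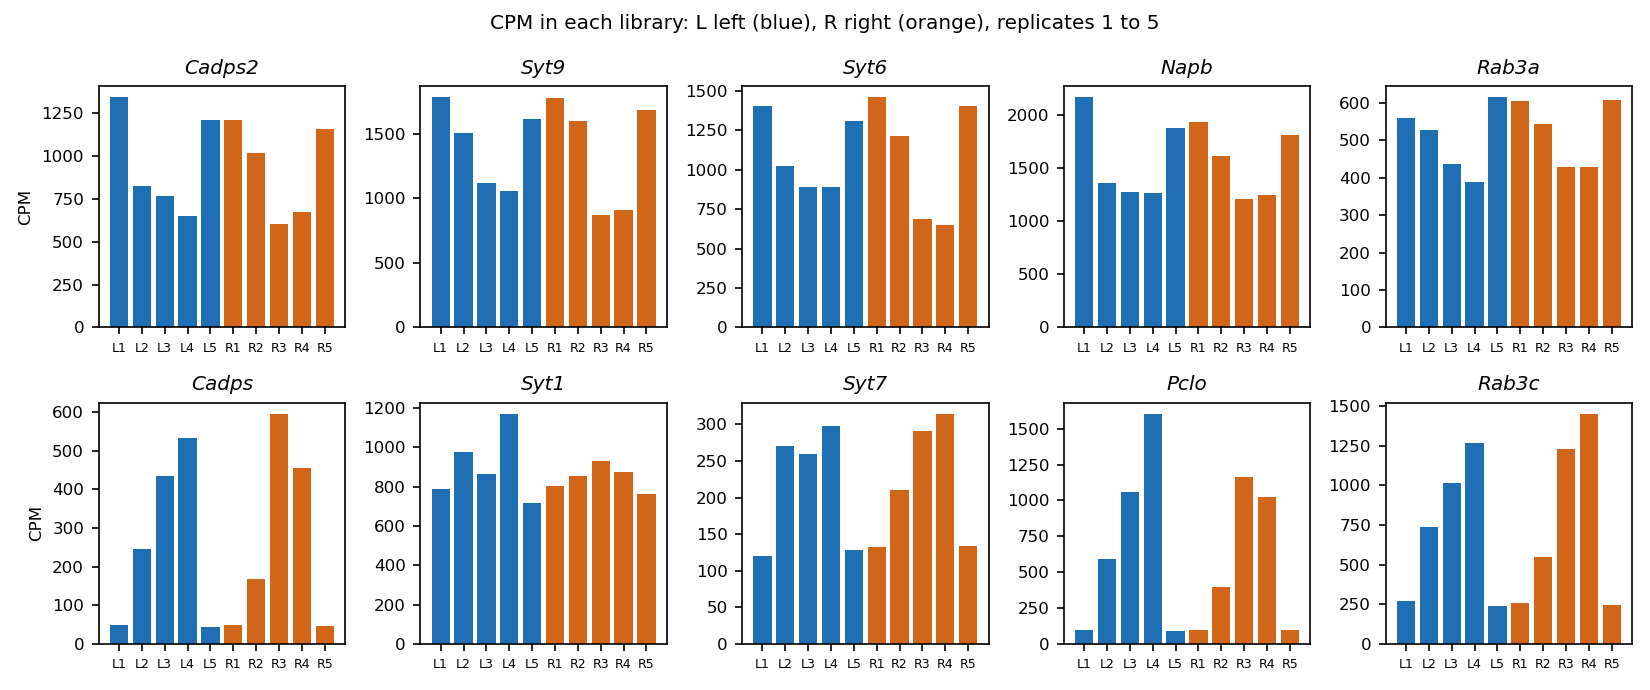
CPM of 10 release genes in each library, with left replicates 1 to 5 in blue and right replicates 1 to 5 in orange; the vertical axes start at 0 and differ between genes. In the upper row replicates 1 and 5 are highest on both sides, as for Cadps2 at 1155 to 1339.8 CPM, and in the lower row they are lowest, as for Pclo at 87.5 to 98.4 CPM.

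All 5 active zone scaffold genes were lower in replicates 1 and 5 than in any other library. The same held for 24.3% of all tested genes. Among coding genes with at least 1 CPM whose longest transcript reaches 6000 bases it held for 51.3%, and all of the 5 but Rims2 reach that length. Pclo, the giant scaffold Piccolo, spanned the widest range of the tested genes on the list, 18.3-fold. It stood at 94.8, 595, 1060.0, 1603 and 87.5 CPM on the left, against 98.4, 394, 1162, 1027 and 94.7 CPM on the right. Bsn, its relative Bassoon, stood at 162, 475, 672, 847 and 177 CPM on the left, against 193, 382, 771, 723 and 196 CPM on the right. The median of the 4 low libraries was 0.0908 times that of the other 6 for Pclo and 0.265 times for Bsn. The RIM genes, which tie calcium channels and Rab3 to the release site, differed less. Rims1 had 50.9 to 53.0 CPM against 73.4 to 119 CPM, Rims2 77.5 to 92.0 CPM against 133 to 200.4 CPM, and Rims3 8.73 to 9.81 CPM against 10.8 to 17.4 CPM. Per length the medians over 10 libraries were 26.9 CPM per kb for Bsn, 22.0 for Pclo, 13.1 for Rims2 and 10.8 for Rims1. The order depended on the libraries and the length: in replicates 1 and 5 the median of Pclo, 4.22 CPM per kb, was below those of Rims2 (7.87) and Rims1 (6.95), and with the longest transcript as the length Rims2 was highest, at 28.4.

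Vesicle proteins divided into steady and variable genes. Syp, the vesicle protein synaptophysin, hardly moved, with 776, 913, 908, 752 and 841 CPM on the left, against 834, 780.3, 825, 768 and 865 CPM on the right. The SV2 genes, vesicle glycoproteins that bind synaptotagmin, were also even, at 301 to 422 CPM for Sv2a, 481 to 677 CPM for Sv2b and 58.6 to 85.9 CPM for Sv2c. Per length Sv2a and Sv2b were near each other, with medians of 81.5 and 69.8 CPM per kb, and their order reversed to 87.2 and 106 CPM per kb with the longest transcript as the length. Sypl, a synaptophysin-like gene of many tissues, was rare, with a median of 1.58 CPM per kb. Synapsins, phosphoproteins that tether vesicles in the reserve pool, were led by Syn1, with 80.3% to 88.2% of the summed level per kb. With the longest transcript as the length the share of Syn1 was 67.6% to 78.3%. Syn1 stood at 417, 676, 994, 1477 and 415 CPM on the left, against 442, 638, 1094, 836 and 451 CPM on the right. Syn2 varied far more, with 33.4, 151, 218, 265 and 29.5 CPM on the left, against 40.1, 96.0, 279.7, 353 and 38.2 CPM on the right. For both genes replicates 1 and 5 held the 4 lowest values. Syn3 overlapped between these libraries, at 148 to 271 CPM, and shares 14.1% of its exonic bases with Timp3 on the other strand.

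Of the Rab3 GTPases, which mark vesicles for the active zone, Rab3a and Rab3c ran in opposite directions across the libraries. Rab3a stood at 560.0, 527, 438, 388 and 614 CPM on the left, against 605, 542, 428, 429 and 608 CPM on the right. Rab3c stood at 269, 739.8, 1016, 1269.7 and 238 CPM on the left, against 256, 549, 1229.7, 1451 and 243 CPM on the right. Rab3a was highest and Rab3c lowest in replicates 1 and 5 of both sides, and Rab3a made up 88.4% to 90.2% of the summed level per kb of the 3 genes there, against 59.3% to 82.2% in the other 6 libraries. Rab3b was low throughout, at 25.4 to 47.4 CPM. In the recycling machinery Napb, the brain form β-SNAP, exceeded its relative Napa (α-SNAP) in every library, at 86.2% to 91.0% of their summed level per kb. Napb stood at 2164, 1361, 1276, 1268 and 1877 CPM on the left, against 1929, 1610.4, 1206, 1249.8 and 1813 CPM on the right. Nsf, the ATPase itself, ran against Napb, with 659 to 702 CPM in replicates 1 and 5 and 841 to 1644 CPM in the other 6 libraries.

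Counted over the list, 19 of 44 genes were lower in all of replicates 1 and 5 than in any of the other 6 libraries, or 43.2%, where 24.3% of the 16250 genes tested between sides did the same. Conversely 6 of 44, or 13.6%, were higher without overlap (Cadps2, Syt9, Syt6, Napb, Rab3a and Syt4), against 22.9% of the tested genes. Syt4 overlapped with TMM, median-of-ratios or upper-quartile scaling, and Rab3a with upper-quartile scaling. The median ratio of replicates 1 and 5 to the other 6 libraries was 0.818 over the list and 0.998 over all tested genes. These libraries were set apart by their replicate numbers after glial markers had shown them to differ, so the counts are a description with no test. In pull-downs of mixed tissue, fewer cells of a type and less RNA per cell cannot be told apart. The markers of astrocytes, oligodendrocytes and thalamic neurons moved with the genes that were lower, all 15, all 12 and 8 of 10 of them without overlap, and their part in the result was not tested.

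**Figure D3:**
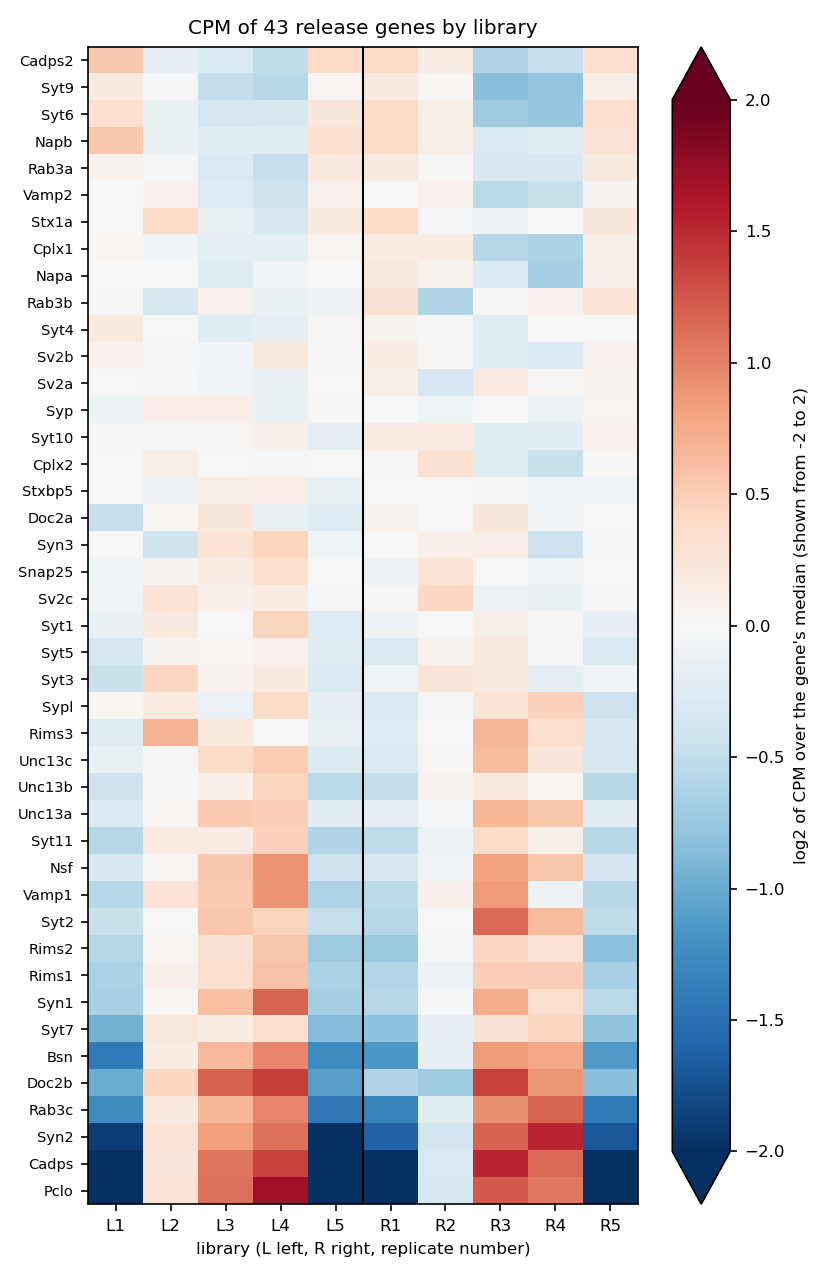
Level of 43 release genes (Cplx3 left out) in each library, as log2 of CPM over the gene's median, from red (higher) to blue (lower), with left libraries before the black line and right libraries after it. Replicates 1 and 5 of both sides are blue at the bottom, down to Pclo at 87.5 to 98.4 CPM, and red at the top, where Cadps2 stands at 1155 to 1339.8 CPM.

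Transcript length moved with the same difference. Of the 13 listed genes whose longest annotated transcript reaches 6000 bases, 11 were lower in replicates 1 and 5 without overlap (84.6%), and of the 31 shorter ones 8 were (25.8%). All 6 genes that were higher have transcripts of 1556 to 4969 bases. Over 11910 coding genes with at least 1 CPM, 51.3% of those reaching 6000 bases and 18.2% of the shorter ones were lower without overlap. Spearman's rho between length and the ratio of the libraries was -0.49 over the 44 genes and -0.48 over the 11910 coding genes, a description of points that share the same 10 libraries. Short genes also took part. Syn2, with a longest transcript of 3854 bases, had a ratio of 0.148, while Stxbp5, with 8825 bases, had 0.960. The part of length in the result was not tested.

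**Figure D4:**
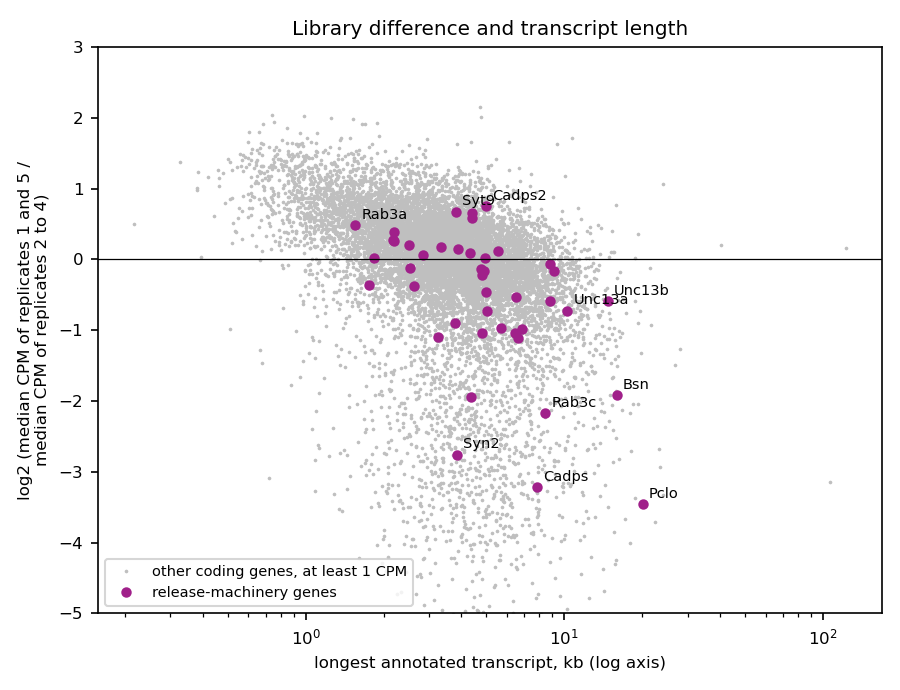
Log2 of the median CPM in replicates 1 and 5 over that in replicates 2 to 4, against the length of the longest annotated transcript in kb on a log axis, for 43 release genes (purple) and other coding genes with at least 1 CPM (grey; 22 lie outside the frame). Release genes above 6 kb lie below 0, with Pclo lowest at a ratio of 0.0908, and Cadps2 is highest at 1.69.

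The study set the left against the right medial habenula, and none of the 43 release genes tested passed the threshold. Between left and right, edgeR (quasi-likelihood F test) called 0 of 16250 genes at an adjusted p under 0.05, a share of 0%, and 0 of the 43. Without adjustment 90 genes had a p under 0.05, none of them on the list. DESeq2 also called 0 genes, with 141 under 0.05 unadjusted and none on the list, and limma-voom called 0, with 2359 unadjusted and 1 on the list (Rims2, named after its value was seen). The left and right values overlapped for all 44 genes. Fitted log2 fold changes, left minus right, lay between -0.27 for Syn2 and 0.26 for Pclo, and 34 of the 43 were under 0.1 in size. These limits rest on single libraries: Pclo stood at 0.73 without right replicate 3 and at -0.31 without left replicate 4, where Syn2 stood at -0.62, and Syn2 at 0.29 without right replicate 4. In limma-voom with sample weights the log2 fold change was 1.76 for Pclo, 1.57 for Cadps and 1.17 for Syn2, none past the threshold. In the edgeR fit the median of the 43 log2 fold changes was 0.01, against -0.01 over all tested genes, with 25 above 0 and 18 below. In limma-voom the median was 0.11, against -0.01 over all tested genes, with 26 above 0. The edgeR balance also turned on single libraries, with 31 above 0 without left replicate 1 and 14 without left replicate 4. The 95% interval lay between -1 and 1 for 35 genes, so a 2-fold difference between the sides is outside the interval for these. For Pclo it ran from -1.85 to 2.37 and for Cadps from -2.03 to 1.92, wider than a 2-fold difference each way in this fit, whose single spread includes the difference between replicates 1 and 5 and the others. With the glial score as a covariate the intervals were -0.02 to 0.45 for Pclo and -0.14 to 0.29 for Cadps. With the sequencing lane as a block, in replicates 2 to 5, they were -0.07 to 0.54 for Pclo and -0.26 to 0.36 for Cadps.

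The genes with the smallest unadjusted p were Doc2a, Rab3b and Sv2a, all with higher means on the right. Doc2a had 4.48, 6.34, 7.23, 5.59 and 5.16 CPM on the left, against 6.46, 6.12, 7.21, 5.98 and 6.26 CPM on the right, a log2 fold change of -0.18 (95% interval -0.51 to 0.16). Rab3b had 37.7, 31.0, 41.0, 35.1 and 35.8 CPM on the left, against 47.4, 25.4, 39.3, 41.0 and 46.5 CPM on the right, a log2 fold change of -0.17 (-0.55 to 0.21). Sv2a had 380.1, 369, 361, 345 and 376 CPM on the left, against 408, 301, 422, 386 and 397 CPM on the right, a log2 fold change of -0.09 (-0.34 to 0.16). In all 3 the sides overlapped, and edgeR gave an adjusted p of 1.

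Within replicates 1 and 5 alone, the edgeR test of 2 left against 2 right libraries called 5 of 43 release genes lower on the left, or 11.6%, where 7.06% of 15569 genes were called in that direction. It called 0 release genes higher on the left, where 5.74% of all genes were. The 5 were Rab3b (log2 fold change -0.35, adjusted p = 0.00999), Syn2 (-0.32, adjusted p = 0.0178), Doc2a (-0.40, adjusted p = 0.0385), Syt10 (-0.23, adjusted p = 0.0401) and Syt3 (-0.29, adjusted p = 0.0413). In replicates 2 to 4 alone the log2 fold change was -0.00456 for Rab3b, -0.23 for Syn2, -0.03 for Doc2a, 0.10 for Syt10 and 0.13 for Syt3, and edgeR called none of them (adjusted p = 0.9999 each). Whether the 2 sets of libraries differ in this was not tested. Since the 2 libraries of a side were nearly alike, the calls do not measure the spread between animals.

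**Figure D5:**
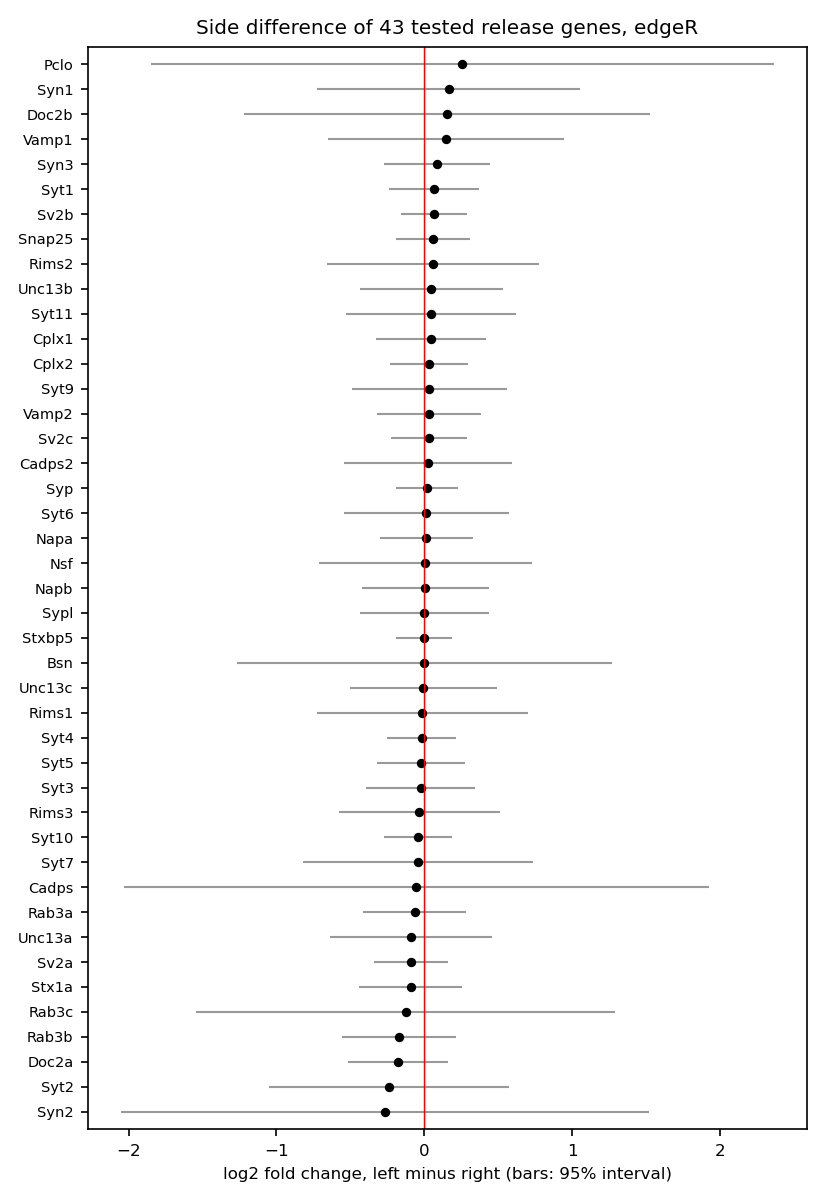
Log2 fold change, left minus right, of the 43 tested release genes from the edgeR fit over 10 libraries (points) with 95% intervals (bars). All points lie between -0.27 and 0.26, all intervals include 0, and those of Pclo, Cadps and Syn2 are the widest.

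A wider list of 74 further genes of release and vesicle recycling also gave no call between the sides. Of these 70 were tested and 0 were called by the edgeR test, with 0 at an unadjusted p under 0.05 and 28 fold changes above 0. Within replicates 1 and 5 alone edgeR called 5 of 70, 3 of them higher on the left. Of all 15569 genes tested there, 5.74% were called higher on the left and 7.06% lower. Abundant genes of the list included Apba1, Synj1 and Sh3gl2. Apba1, the adaptor Mint1, averaged 1077 ± 104 CPM in left libraries and 1066 ± 232 CPM in right ones (SD, n = 5 each). Synj1 encodes a lipid phosphatase of vesicle recycling. Sh3gl2, the membrane-bending protein endophilin A1, averaged 817 ± 115 CPM in left libraries and 739.6 ± 132 CPM in right ones. For Apba1 and Sh3gl2 the side means differed by less than either SD. Across libraries the 2 directions were balanced in this list. In replicates 1 and 5, 17 of 74 genes were lower and 17 higher without overlap. That is 23.0% each way, near the 24.3% and 22.9% of all tested genes. Single genes still moved far. The median ratio of replicates 1 and 5 to the other 6 libraries was 0.0638 for Rph3a and 2.88 for Sncg, both named after their values were seen.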

How the data were processed

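The authors deposited raw counts of reads per gene symbol, 1 file per library. The submitters' processing notes name STAR 2.0.0e, HTSeq and mm10. The annotation, strand setting and filters were not given in the sources used here. Reads in overlapping genes, 2.25% to 2.81% of uniquely aligned reads, and multiply aligned reads were not assigned to genes. A row named unknown (0 to 4 reads) and 5 summary lines were left out, and 13.6% to 18.9% of uniquely aligned reads fell in no counted feature.

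CPM used the total of gene rows. Sides were taken from the titles and compared with edgeR 4.0.16 in R 4.3.3 (TMM, filterByExpr with a minimum count of 10, robust quasi-likelihood F test, two-sided, Benjamini-Hochberg over all tested genes, threshold 0.05), checked on simulated data. Intervals are 95% intervals whose standard error was derived from the F statistic. Lengths and overlaps came from GENCODE M21 (GRCm38), where all 44 genes matched: 15 share exonic bases with another gene, 4 of them over 10% (Syt4, Syn3, Syp and Doc2a). Figures used matplotlib 3.10.9.

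Genes in the text are the most abundant of each role, the 3 with the smallest p, the 5 at each end of the ratio of the lowest value in replicates 1 and 5 to the median of the other 6 libraries, and those under 1 CPM. Vamp1, Vamp2, Stxbp5 and Syt1 are printed by library outside this rule, chosen after their values were seen; most others are given as ranges. The list, roles, markers and tests were chosen with earlier results of these data known. Alternatives were other scalings and filters, DESeq2 1.42.0, limma 3.58.1 (voom with sample weights), the glial score (mean log2 CPM of 46 glial and vascular markers, prior count 2) as a covariate, the replicate block, lanes as a block, subsets of libraries and leaving out each library. A few genes are not reported here.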

Additional observations from a re-analysis of the deposited data

Results flagged for a closer look

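In 2 of 88 sets of 5 libraries (44 genes on 2 sides) 1 library lay far from the other 4. The 1 in 20 that chance gives holds for independent libraries. Replicates 1 and 5 of a side were much alike, so the count cannot be set against that rate. Cplx2 was highest in left replicate 2, at 401 CPM against 372 CPM in the next library, a gap of 0.771 of the side's range. Sv2c was highest in right replicate 2, at 85.9 CPM against 65.3 CPM, a gap of 0.753 of the range. Both exceed Dixon's 95% critical value for 5 libraries, 0.71.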

How the results depend on the processing

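The count of genes called between the sides was 0 in every alternative run except replicates 1 and 5 alone, which gave 1992 genes and 5 release genes. With the replicate block edgeR called 0 of 16250 genes (297 at an unadjusted p under 0.05) and 0 release genes. Deviations of libraries with the same number correlated at 0.86, 0.0962, 0.806, 0.715 and 0.873 for numbers 1 to 5. Number 2 was under 0.1, the least set for every pair, and unlike numbers correlated as closely (left 1 with right 5 at 0.848, left 4 with right 3 at 0.859), so the numbers were not taken to pair the samples; numbers 2 to 5 do share a sequencing lane across the sides. With the block the 95% interval was -0.12 to 0.45 for Pclo and -0.25 to 0.31 for Cadps. With the glial score as a covariate 506 genes, and in limma-voom with sample weights 2359 genes, had an unadjusted p under 0.05, none past the threshold. The signs of Doc2a, Rab3b and Sv2a held in every alternative, but leaving out 1 library moved Doc2a between -0.26 (without left replicate 3) and -0.08 (without left replicate 1), Rab3b between -0.30 (without right replicate 2) and -0.11 (without right replicate 5), and Sv2a between -0.17 (without right replicate 2) and -0.04 (without right replicate 3); Doc2a and Rab3b passed the threshold with replicates 1 and 5 alone. Leaving out each library, the count of release genes without overlap between replicates 1 and 5 and the others was 25 to 27, and with other scalings 23 or 24. Of the 10 highest genes per length, 9 or 10 were shared under each alternative. Depth limits only Cplx3.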
